A study of Mus musculus with 36 samples.

Results

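Rescue keratinocytes were compared with wild-type (WT) keratinocytes after 72 h in high calcium medium (HCM). The comparison held 6 of the 36 libraries of the series, 3 per genotype, and these were chosen by their genotype and treatment labels. The series measured poly(A) RNA in WT, PKP4-KO and Rescue mouse keratinocytes kept in low calcium medium (LCM) or HCM for 24 h or 72 h, with 3 libraries in each of the 12 groups. WT cells were primary keratinocytes from newborn Pkp4+/+ mice without a transgene. PKP4-KO cells came from Pkp4-/- pups that lack exon 9 of the gene. Rescue cells were PKP4-KO keratinocytes transduced with a lentiviral pLVX-IRES-puro vector that encodes human PKP4 with EGFP at its N-terminus, and were selected with puromycin. WT and Rescue cells thus differed in the animal of origin, in the deletion of exon 9 of Pkp4, in transduction and selection and in the transgene. Their sex-linked RNA differed too (below), and these differences cannot be told apart in this comparison. The question addressed was how far the RNA of the cells that regained PKP4 as a GFP fusion differed from that of WT cells once junctions had formed.

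PKP4 (p0071) is an armadillo-repeat protein of the p120-catenin family that binds classical cadherins at adherens junctions and takes part in RhoA signalling at the cell cortex. When extracellular calcium is raised, the cadherins of cultured keratinocytes engage, adherens junctions and desmosomes assemble, cortical actin is remodelled and the cells start terminal differentiation. Basal keratinocytes express Krt5 and Krt14, and differentiating cells replace them with suprabasal keratins, proteins of the cornified envelope and enzymes of the lipid barrier.

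Pkp4 itself (ENSMUSG00000026991, forward strand of GRCm39, chr2:58991088-59185552) was examined first. The study describes the knockout allele, which the Rescue cells carry, as lacking exon 9 and names no transcript. Exon 9 of the annotated transcript Pkp4-210 is shown, and whether it is the deleted exon was not tested. Its 220 bases, printed in capitals, lie at chr2:59142038-59142257 and are followed and preceded by 20 intronic bases in lower case. The printed window is thus chr2:59142018-59142277 of GRCm39, read on the forward strand.
Pkp4 exon 9: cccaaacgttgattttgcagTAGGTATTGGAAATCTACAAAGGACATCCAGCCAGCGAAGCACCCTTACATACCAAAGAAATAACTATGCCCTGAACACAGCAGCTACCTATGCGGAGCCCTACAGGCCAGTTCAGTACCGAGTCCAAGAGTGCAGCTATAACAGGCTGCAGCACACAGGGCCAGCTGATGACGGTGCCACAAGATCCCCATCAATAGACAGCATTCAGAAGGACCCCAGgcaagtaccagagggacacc
The length of the exon leaves a remainder of 1 when divided by 3. Mouse Pkp4 stood at 11.9, 9.07 and 7.42 CPM (counts scaled to a common library size with TMM factors) in the 3 Rescue libraries and at 38.5, 43.8 and 33.4 CPM in the 3 WT libraries. All Rescue libraries lay below all WT libraries, and the Rescue mean was 24.5% of the WT mean (9.47 ± 2.27 against 38.6 ± 5.19 CPM, SD, n = 3 each). The log2 fold change was -2.03 ± 0.16 (standard error of the fit), with an adjusted p of 2.44e-10 by edgeR's quasi-likelihood test. PKP4-KO libraries of the same condition stood at 8.26, 6.40 and 7.15 CPM. The reads counted on GFP-PKP4, the transgene sequence that the authors added to the genome, gave 296, 341 and 245 CPM in Rescue and 1.12, 0.822 and 2.05 CPM in WT. The transgene was thus high in all 3 Rescue libraries and low in WT, with 5.08, 0.436 and 0.908 CPM in PKP4-KO. Two-sided exact permutation tests gave p = 0.1 for each of these genes, the smallest value that 3 against 3 libraries allow. The fusion is human PKP4 and was counted apart from the mouse gene; how far reads of one could be counted on the other was not tested.

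**Figure D1:**
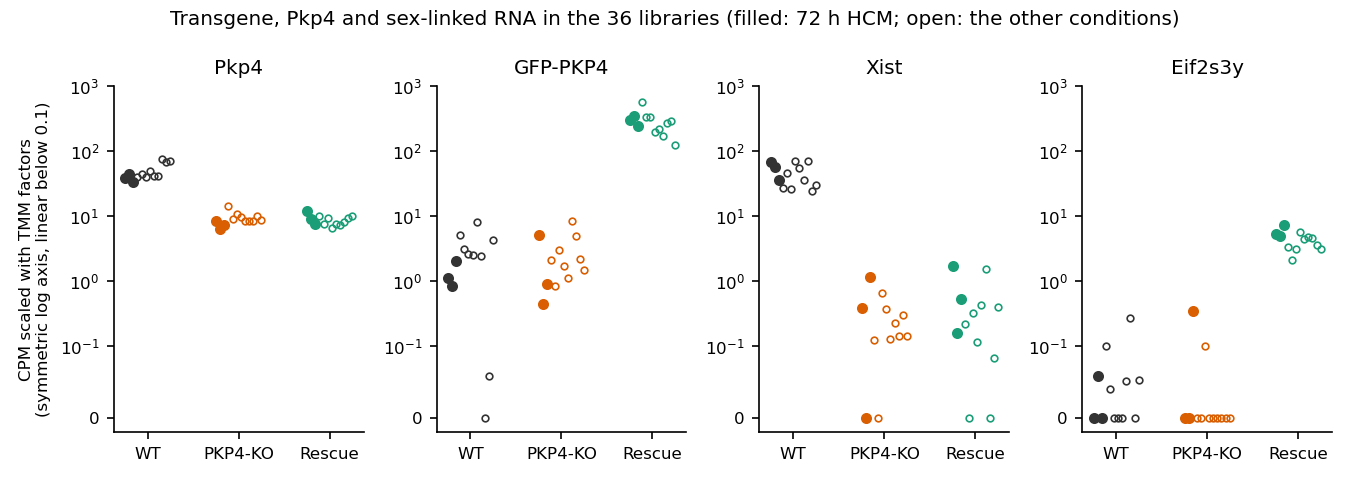
CPM scaled with TMM factors (symmetric log axis, linear below 0.1) of Pkp4, GFP-PKP4, Xist and Eif2s3y in the 36 libraries by genotype; filled points are the 72 h HCM libraries and open points the other conditions. Pkp4 is lower in PKP4-KO and Rescue than in WT, GFP-PKP4 is high in Rescue, Xist is high in WT, and Eif2s3y is high in Rescue, at 4.87 to 7.14 CPM at 72 h HCM.

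Sex-linked RNA separated the lines in every condition. Xist, the RNA of the inactive X chromosome, had 350 to 1385 counts in the 12 WT libraries, 0 to 13 in the 12 PKP4-KO libraries and 0 to 37 in the 12 Rescue libraries. Eif2s3y, a Y-linked translation factor gene, had 28 to 150 counts in Rescue, 0 to 5 in WT and 0 to 3 in PKP4-KO. The Y-linked genes Ddx3y, Kdm5d and Uty had 2 to 45, 3 to 55 and 2 to 26 counts in Rescue against at most 4 in any WT or PKP4-KO library. WT libraries thus showed the RNA pattern of female cells and Rescue libraries that of male cells. Sex cannot be told apart from the other differences between these lines, for X-linked genes or others. Rescue libraries also held Y-linked RNA that the libraries labelled PKP4-KO did not, although the study derives the one line from the other, and all results below compare the lines as labelled.

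Gene totals lay between 18143264 and 21669228 counts in the Rescue libraries and between 13837045 and 17662963 in WT. WT replicate 3 stood apart from the other WT libraries: 15.98% of its reads fell on genes shorter than 1000 bases, against 9.34% to 10.2% in WT replicates 1 and 2 and 8.19% to 8.99% in Rescue. The chi-square per gene between libraries was 111 and 137 for the pairs with WT replicate 3, 8.75 for the other WT pair and 7.51 to 19.4 among the Rescue libraries, and no pair held the same counts. The median log2 fold change of genes under 500 bases was -1.75 and that of genes over 6000 bases was 0.36. Without WT replicate 3 these medians were -0.79 and 0.23, and with a smooth offset for gene length per library, an alternative chosen after seeing the data, they were -0.66 and -0.03. PKP4-KO libraries of 72 h HCM, whose levels stand beside those of Rescue and WT below, had 18.2% to 19.8% of reads on genes under 1000 bases. Their TMM factors were 0.481 to 0.546, against 1.16 to 1.19 in Rescue and 0.705 to 0.98 in WT. Comparisons of levels with PKP4-KO rest on this scaling, whose part in them was not tested. The part of gene length and of WT replicate 3 in the results was not tested. Values without that library or with the offset stand beside some of the results below. Where they are absent, the result is that of the fit of all libraries without the offset. This holds for all list counts of differences between times or between calcium conditions.

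**Figure D2:**
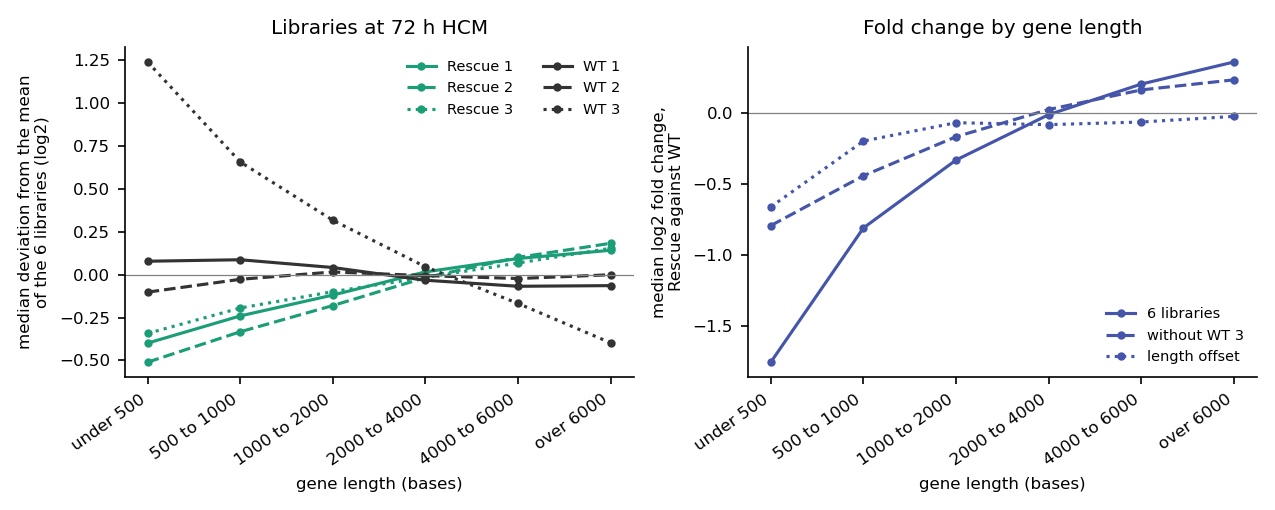
Left, median deviation of each 72 h HCM library from the mean of the 6 libraries (log2) by class of gene length in bases; WT replicate 3 lies at 1.24 for genes under 500 bases and at -0.40 for genes over 6000 bases. Right, median log2 fold change of Rescue against WT by gene length for the 6 libraries, without WT replicate 3 and with the length offset, rising with length from -1.75 to 0.36 in the first.

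Defining keratinocyte markers were present in both lines. Summed over 10 such genes the level was 29690 to 30240 CPM in Rescue and 56210 to 64840 CPM in WT, and 4 of the 10 were called lower (Krt5, Krt14, the stratifin gene Sfn and Perp). Krt14 and Krt5 made up most of this sum, and the other 6 genes, among them Trp63, Itga6, Itgb4 and Cdh1, were not called. Markers of other cells were low: the 6 fibroblast markers summed to 4.87 to 6.07 CPM in Rescue and 0.410 to 1.54 CPM in WT, most of it from Pdgfra, while Tyr (melanocytes), Lyz2 and Cd207 (myeloid and Langerhans cells), Cdh5 (endothelium), Atoh1 and Piezo2 (Merkel cells) were at 0 in all 6 libraries. The melanocyte markers summed to 1.05 to 1.39 CPM in Rescue and 0.294 to 0.650 CPM in WT, the Merkel cell markers to 6.71 to 8.76 and 4.37 to 4.82 CPM, and the muscle markers to at most 0.695 CPM. Endothelial markers summed to 2.45 to 4.22 and 2.36 to 4.43 CPM, and the immune markers to 62.2 to 69.4 and 33.4 to 60.7 CPM, almost all of it from Cd68, a lysosomal gene. In bulk RNA, fewer cells of a type and less RNA per cell cannot be told apart.

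Of the 15114 genes tested at 72 h HCM, 2948 were called higher in Rescue (19.5%) and 2518 lower (16.7%), where called means an adjusted p below the threshold of 0.05 in edgeR's quasi-likelihood test. At least 2-fold changes were found in 1446 of the genes called higher and 1322 of those called lower. Counts of list members below stand beside these shares of 19.5% higher and 16.7% lower. List counts with the length offset stand beside 2209 higher and 3301 lower of the 15114 genes. Full separation of the 3 Rescue from the 3 WT libraries was seen for 7988 genes (52.9%). Lack of overlap, stated for single genes below, was thus common among all tested genes. The split of calls depended on the scaling: library sizes without TMM factors moved the median of all genes from 0.06 to 0.46 and gave 4856 higher and 1209 lower calls, and the length offset gave 2209 and 3301. Without WT replicate 3, 2237 genes were called higher and 1668 lower of 15569, and 1670 and 1501 genes were called in the same direction in all 3 of these fits (6 libraries, without WT replicate 3, length offset). Changes below are therefore relative to the scaling with TMM factors, and a value in brackets after a gene is its log2 fold change in Rescue against WT.

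The same genes were followed in libraries that this comparison does not use. At 72 h LCM 17.9% of tested genes were called higher and 14.6% lower, at 24 h HCM 11.8% and 11.4%, and at 24 h LCM 13.5% and 11.4%. Of the 2948 genes higher at 72 h HCM, 1406 (47.7%) were also called higher at 72 h LCM, 1069 (36.3%) at 24 h HCM, 1060 (35.96%) at 24 h LCM and 775 (26.3%) in all of these. For the 2518 lower genes the shares were 38.0% (957), 32.5% (819), 26.2% (659) and 19.3% (485). Calls in the opposite direction were made for 93, 75 and 81 of the higher and for 112, 61 and 117 of the lower genes at 72 h LCM, 24 h HCM and 24 h LCM.

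The simple-epithelium keratin gene Krt7 showed one of the largest separations at a high level. Krt7 (GRCm39, chr15:101308924-101328194, forward strand) stood at 344, 329 and 367 CPM in Rescue and at 5.91, 7.46 and 7.38 CPM in WT. It was 50.2-fold higher, a log2 fold change of 5.65 ± 0.27 (edgeR's quasi-likelihood test, adjusted p = 8.21e-15), and the PKP4-KO libraries stood at the WT level with 6.35, 6.69 and 9.54 CPM. The difference was found in every condition, at 4.996 (24 h HCM), 4.83 (72 h LCM) and 4.76 (24 h LCM) on the log2 scale. Lzts2, Peg3 and Prr9 followed the same order of lines, high in Rescue and low in both others. Lzts2, a leucine zipper putative tumour suppressor, stood at 27.8, 26.6 and 24.6 CPM in Rescue, 0.354, 0.587 and 0.718 in WT and 0.381, 0.291 and 0.908 in PKP4-KO. Peg3, a paternally expressed imprinted zinc finger gene, stood at 28.5, 35.8 and 26.2 CPM in Rescue, 0.827, 0.881 and 0.103 in WT and 0, 1.02 and 0.454 in PKP4-KO. The late cornification gene Prr9 was at 301, 274 and 205 CPM in Rescue, 8.86, 7.69 and 9.84 in WT and 5.21, 10.03 and 6.70 in PKP4-KO. For Slc38a1, a glutamine transporter, the levels were 12.5, 10.01 and 7.90 CPM in Rescue and 0, 0.352 and 0.308 in WT. For these 4 genes no Rescue library overlapped a WT library, and the log2 fold changes were 5.60, 5.52, 4.89 and 5.55.

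Several other genes among the 15 highest were also higher in PKP4-KO than in WT. Cbr1, a carbonyl reductase gene (GRCm39, chr16:93402741-93407393), was at 43.3, 43.6 and 42.7 CPM in Rescue, 0.413, 0.294 and 0.615 in WT and 29.3, 26.3 and 32.9 in PKP4-KO, with a log2 fold change of 6.67 ± 0.27 (edgeR's quasi-likelihood test, adjusted p = 2.15e-16). The X-linked gene Xlr3b was at 18.6, 16.4 and 20.6 CPM in Rescue and 0.118, 0.117 and 0 in WT, with 15.9, 19.04 and 22.5 in PKP4-KO; in WT, no library held more than 2 reads, so that its fitted value of 7.57 depends on the prior count. Stanniocalcin 2 (Stc2), a secreted glycoprotein induced by cellular stress, was at 41.98, 38.5 and 35.6 CPM in Rescue, 0.768, 0.881 and 1.13 in WT and 42.4, 39.98 and 32.7 in PKP4-KO. These genes separated WT from both lines of the Pkp4-/- background without overlap. For Xlr3b and Stc2 the levels in the 2 lines were alike after scaling with TMM factors, which differed between these lines. Evc2, a ciliary Hedgehog regulator, rose by 6.22 on the log2 scale, Aldh1a3, which makes retinoic acid, by 6.17, Renbp, a renin-binding protein, by 5.09, and the lysosomal glycoprotein gene Gpnmb by 6.51. In PKP4-KO the levels of Aldh1a3 (9.15, 3.78 and 3.52 CPM) and Gpnmb (13.5, 12.4 and 11.4 CPM) lay between those of WT and Rescue, and Gpnmb varied among the Rescue libraries, at 71.5, 67.1 and 24.9 CPM. The serpin gene Serpinb3a, a member of a cluster of near-identical copies whose counts are uncertain, was at 41.8, 47.1 and 71.1 CPM in Rescue, 0.472, 1.23 and 1.85 in WT and 679, 824 and 688 in PKP4-KO, so that Rescue lay between the others. Ndufa4l2, a mitochondrial subunit gene induced in hypoxia, lay likewise between them at 10.2, 12.7 and 8.23 CPM against 0.295, 0.470 and 0.410 in WT and 305, 269.8 and 180.4 in PKP4-KO.

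**Figure D3:**
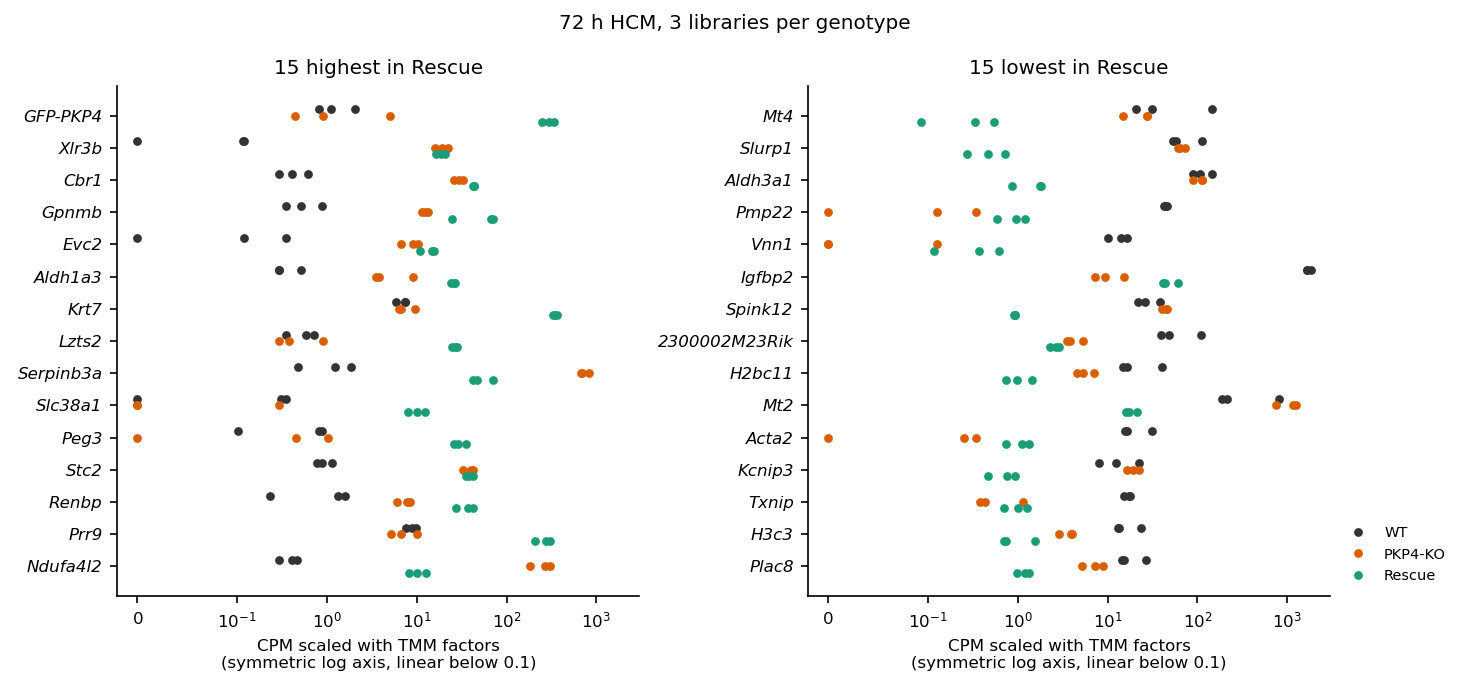
CPM scaled with TMM factors (symmetric log axis, linear below 0.1) of the 15 protein-coding genes with the highest and the 15 with the lowest log2 fold change in Rescue against WT at 72 h HCM; each point is a library of WT, PKP4-KO or Rescue. Rescue and WT points do not overlap for any gene, which the choice of genes required, while PKP4-KO points lie with WT for Krt7, with Rescue for Xlr3b and below Rescue for Pmp22.

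Among the 15 lowest genes, Slurp1 and Aldh3a1 were near the WT level in PKP4-KO and nearly absent in Rescue. Slurp1, a secreted protein of the epidermal barrier, was at 0.463, 0.273 and 0.714 CPM in Rescue, 58.2, 53.1 and 112 in WT and 64.02, 73.4 and 59.96 in PKP4-KO. Aldh3a1, an aldehyde dehydrogenase, was at 1.76, 0.857 and 1.81 CPM in Rescue, 106, 89.3 and 143 in WT and 89.9, 113 and 111 in PKP4-KO. Both fell in all 3 Rescue libraries below every library of the other lines, with log2 fold changes of -7.27 ± 0.54 and -6.26 ± 0.30. The metallothionein gene Mt4, active in stratified epithelia, was at 0.0927, 0.545 and 0.333 CPM in Rescue and 31, 20.8 and 147 in WT, of which the highest was WT replicate 3. Mt4 was at -7.60 on the log2 scale, and its value without WT replicate 3 was -6.26. Mt2, a ubiquitous metallothionein that binds zinc and copper, was at 15.8, 17.2 and 21.4 CPM in Rescue and 215, 186 and 803 in WT, with -4.46 and -3.47 on the same scale. The protease inhibitor gene Spink12 was at 0.927, 0.935 and 0.904 CPM in Rescue and 26.04, 21.6 and 37.9 in WT. Kcnip3, a calcium-binding repressor protein gene, was at 0.927, 0.467 and 0.761 CPM in Rescue and 12.5, 8.04 and 22.1 in WT.

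Of the other lowest genes, Igfbp2 and Pmp22 were low in PKP4-KO too. Igfbp2, a secreted binding protein of insulin-like growth factors (GRCm39, chr1:72863606-72891634, forward strand), was at 41.7, 43.8 and 61.1 CPM in Rescue, 1644, 1644 and 1832 in WT and 15.4, 7.27 and 9.43 in PKP4-KO. Igfbp2 was 34.9-fold lower in Rescue than in WT (log2 fold change -5.13 ± 0.40; edgeR's quasi-likelihood test, adjusted p = 1.13e-10). Pmp22, a tetraspan membrane protein, was at 1.21, 0.584 and 0.951 CPM in Rescue, 43.9, 46.1 and 42.5 in WT and 0.127, 0 and 0.341 in PKP4-KO. For Pmp22 and Igfbp2 no library of either Pkp4-/- line reached the WT range. Txnip, an inhibitor of thioredoxin, fell by 4.10 on the log2 scale, the pantetheinase gene Vnn1 by 5.22 and Plac8 by 3.99. Acta2, smooth muscle actin, was at 1.11, 0.740 and 1.33 CPM in Rescue and 15.5, 16.3 and 31.2 in WT. The short replication-dependent histone genes H2bc11 and H3c3, whose reads can be shared with other histone genes, were at -4.50 and -4.04 on the log2 scale, and the short gene 2300002M23Rik at -4.65. The libraries were made from poly(A) RNA, and how far they capture the RNA of these histone genes was not tested.

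Keratin genes moved in different directions by class. Both basal keratin genes fell: Krt14 was at 14100, 13960 and 14840 CPM in Rescue and 34130, 34960 and 36840 in WT (log2 fold change -1.30 ± 0.15), and Krt5 was at 8936, 9286 and 7624 CPM in Rescue and 11030, 12060 and 17270 in WT. The 2 groups did not overlap for either gene, but the call of Krt5 (-0.64) was lost without WT replicate 3 (-0.43, edgeR's quasi-likelihood test, adjusted p = 0.088), and Krt15, the other basal keratin tested, was at 0.08 and not called. Of the 5 stress keratin genes, induced in wounded and hyperproliferative epidermis, Krt16, Krt6b, Krt6a and Krt17 fell and Krt75 rose. Krt16 was at 5962, 5637 and 5669 CPM in Rescue and 14420, 14580 and 17370 in WT (-1.43), and Krt17 was at 4064, 4142 and 5021 CPM in Rescue and 6190, 6547 and 8152 in WT (-0.66). Krt6a (-0.89) and Krt6b (-0.94) are near-identical copies between which reads may be split. These 5 genes gave the same calls without WT replicate 3 and with the length offset, and Krt17 was not called with library sizes without TMM factors (-0.23), nor was Krt5 (-0.19).

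Among 9 suprabasal keratin genes tested, 3 were called higher and 1 lower, and 2 each with the length offset. Krt13, a keratin of internal stratified epithelia, was at 64.6, 65.5 and 80.2 CPM in Rescue and 471, 488 and 748 in WT (-3.02). Its usual partner Krt4 was at 113, 112 and 103 CPM in Rescue and 26.9, 29.1 and 37.1 in WT (1.82), and Krt23 at 307, 299 and 325 CPM in Rescue and 63.9, 58.7 and 63.2 in WT (2.33). Krt4 and Krt23 thus rose while Krt13 fell, each without overlap. The epidermal differentiation keratins Krt1 (-1.15) and Krt10 (-0.33) were not called. Of the 5 simple-epithelium keratin genes, Krt7 and Krt18 were called higher, the latter at 1.30, 1.01 and 1.09 CPM in Rescue and at 0 in all 3 WT libraries, and Krt8 (1.30), Krt19 (0.21) and Krt20 (0.26) were not.

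At the junctions, few cadherins were called. Adherens junction genes had 7 of 18 tested members called higher and none lower (median 0.33), 3 without WT replicate 3, and 3 higher and 1 lower with the length offset. E-cadherin (Cdh1) was at 99.5, 94.3 and 82.9 CPM in Rescue and 98.98, 109.8 and 69.4 in WT (-0.01, not called), and beta-catenin (Ctnnb1) was at 0.30, also not called. The LIM protein gene Ajuba, which links alpha-catenin to actin, was at 182, 187 and 151 CPM in Rescue and 79.7, 102 and 80.7 in WT (0.98 ± 0.16). Vinculin (Vcl), which is recruited to tensed junctions, was at 53.6, 47.6 and 44.2 CPM in Rescue and 31.6, 31.6 and 23.5 in WT (0.74). Ajuba and Vcl were higher in all Rescue than in all WT libraries and were called in each of the 3 fits. The calls of afadin (Afdn, 0.90), alpha-catenin (Ctnna1, 0.49) and Ctnnal1 (0.72) were lost without WT replicate 3, with edgeR's adjusted p of 0.0716, 0.0766 and 0.174. The call of Ctnna1 was also lost without Rescue replicate 2 (0.42), that of Ctnnal1 without Rescue replicate 2 or 3 (0.70 and 0.67), and both with the length offset (0.17 and 0.37). Camsap3, which anchors microtubule minus ends, rose by 0.60 on the log2 scale, with 0.26 and no call under the length offset. At an unadjusted p under 0.05 the number of lower adherens junction members was 1, and DESeq2 called 0 lower.

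Within the p120-catenin and plakophilin family, 3 of 7 genes were called higher and Pkp4 lower, and 3 higher and 2 lower with the length offset. Pkp2, a desmosomal plakophilin, was at 8.02, 7.94 and 6.75 CPM in Rescue and 1.06, 0.470 and 1.13 in WT (3.11 ± 0.42; edgeR's quasi-likelihood test, adjusted p = 1.49e-06). Arvcf, another p120 relative at adherens junctions, was at 25.4, 26.1 and 24.9 CPM in Rescue and 12.2, 10.8 and 10.1 in WT (1.21), with 4.95, 3.34 and 3.75 CPM in PKP4-KO. Both rose without overlap of the libraries. The neural family member Ctnnd2 was called higher from very low levels (0.510, 0.117 and 0.476 CPM in Rescue, 0.0591, 0 and 0 in WT) and lost its call without WT replicate 3, and p120-catenin itself (Ctnnd1, -0.33), Pkp1 (-0.15) and Pkp3 (-0.06) were not called. None of the 8 desmosomal cadherin genes tested was called in either direction by edgeR's quasi-likelihood test, while at an unadjusted p under 0.05 1 was higher and 1 lower, DESeq2 called 1 lower, and 2 were called lower without WT replicate 3 and with the length offset each. Of 9 desmosomal plaque genes, plakoglobin (Jup, -0.96), Perp (-0.77) and envoplakin (Evpl, -1.28) fell and Pkp2 rose, with 1 higher and 5 lower under the length offset. The call of Perp was lost with library sizes without TMM factors (-0.38). Jup was at 758, 817 and 646 CPM in Rescue and 1119, 1254 and 1958 in WT, with no overlap.

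Tight junction genes had 6 of 20 members called higher and 1 lower, 4 and 0 without WT replicate 3 and 5 and 1 with the length offset. Cldn12, a claudin, was at 54.6, 55.4 and 42.1 CPM in Rescue and 20.4, 21.6 and 13.5 in WT (1.45), and the polarity gene Pard6b at 28.6, 28.2 and 25.4 CPM in Rescue and 11.99, 15.7 and 16.8 in WT (0.89). JAM-A (F11r) rose by 0.47 on the log2 scale, whereas the calls of Pard3 (0.67) and Cldn4 (-0.45) were lost without WT replicate 3 (0.45 and -0.31), without each Rescue replicate (0.59 to 0.71 and -0.50 to -0.38) and with the length offset (0.20 and -0.27). Patj (0.44) turned to -0.04 with the length offset and lost its call without Rescue replicate 1 or 2 (0.36 in both) and without WT replicate 2 or 3 (0.45 and 0.39). Of the epidermal connexin genes, Gjb5 fell, at 5.47, 3.74 and 4.71 CPM in Rescue and 14.5, 11.6 and 18.8 CPM in WT. Connexin 26 (Gjb2) was at 70.3, 65.3 and 81.8 CPM in Rescue, 20.3, 23.8 and 30.4 in WT and 399, 384 and 254 in PKP4-KO (1.55). Gjb2 thus rose against WT and lay below PKP4-KO in every library.

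The RhoA pathway showed single genes in both directions. GTPases of the RhoA family had 5 of 13 members called higher and 1 lower, 4 and 0 without WT replicate 3 and 3 and 1 with the length offset. The lower member, Rhov, was at 108, 99.6 and 108 CPM in Rescue and 147, 147 and 358 in WT, of which replicate 3 was highest (-1.04), and its call was lost without that library (-0.48; edgeR's adjusted p = 0.328). The exchange factors and activating proteins (GEFs and GAPs) had 11 of 44 members called higher and 4 lower, beside 19.5% and 16.7% of all tested genes. With the length offset the GEF and GAP counts became 8 and 9, so that no direction of this group is given. Arhgef2 (GEF-H1), a RhoA activator released from microtubules, was at 49.8, 49.4 and 42.2 CPM in Rescue and 16.6, 18.4 and 18.2 in WT (1.41 ± 0.14; edgeR's quasi-likelihood test, adjusted p = 1.8e-08). Arhgap24, a GAP for Rac, was at 6.76, 6.04 and 7.04 CPM in Rescue and 1.42, 1.23 and 1.13 in WT (2.38). Rnd1, an atypical GTPase that opposes RhoA, was at 9.64, 10.2 and 10.7 CPM in Rescue and 3.19, 1.82 and 3.79 in WT (1.81). For these 3 genes every Rescue library exceeded every WT library, and the calls were also made without WT replicate 3 and with the length offset. Rhoa itself was at 415, 414 and 382 CPM in Rescue and 295, 311 and 302 in WT (0.42), and the call was lost with the length offset (0.04). Arhgap23, another gene of this GAP family, was at 0.34 and not called (edgeR's quasi-likelihood test, adjusted p = 0.0686).

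Downstream of RhoA, 7 of 29 ROCK, LIMK and myosin genes were called higher and 6 lower, 2 and 6 without WT replicate 3 and 2 and 11 with the length offset. Limk1, the kinase that inactivates cofilin, was at 11.5, 13.2 and 11.7 CPM in Rescue and 17.5, 24.2 and 32.1 in WT (-1.01). Tesk1, a related cofilin kinase, was at 42.1, 41.5 and 34.6 CPM in Rescue and 75.4, 81.7 and 101 in WT (-1.13). Ppp1r14b, an inhibitor of myosin phosphatase, was at 158, 152 and 173 CPM in Rescue and 653, 627 and 1020 in WT (-2.25). These 3 genes fell without overlap, which 52.9% of all tested genes also lacked. The cofilin phosphatase gene Ssh1 rose by 0.997 on the log2 scale. Rock1 (0.92), Rock2 (0.91) and cofilin (Cfl1, -0.49) were not called. Among 20 actin, tropomyosin and SRF target genes, 7 were called higher and 5 lower, including Srf itself (1.09, higher) and Tpm2 (-1.23, lower). These counts were 4 and 5 without WT replicate 3 and 3 and 6 with the length offset.

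Focal adhesion and integrin genes had 9 of 24 members called higher and 2 lower (5 and 4 with the length offset). Zyxin (Zyx) was at 231, 209.6 and 158 CPM in Rescue and 98.4, 92.1 and 144 in WT (0.84, with no call under the length offset), and the adaptor gene Bcar1 at 44.5, 48.6 and 39.8 CPM in Rescue and 24.8, 24.8 and 26.2 in WT (0.81). The integrin genes Itgb6 (-1.48) and Itgb5 (-0.93) fell, and neither overlapped between the groups. YAP targets had 8 of 18 members called higher and 1 lower (5 and 3 with the length offset). Tead1, the DNA-binding partner of YAP, was at 72.7, 76.4 and 72.02 CPM in Rescue, 26.4, 31.9 and 12.3 in WT and 2.92, 3.34 and 3.75 in PKP4-KO (1.64). Ccn2 (CTGF), a commonly used YAP readout, was at 14.2, 19.4 and 15.5 CPM in Rescue, 51.6, 55.2 and 34.8 in WT and 1.27, 0.436 and 0.568 in PKP4-KO (-1.53). Tead1 and Ccn2 thus moved in opposite directions, with PKP4-KO lowest in both.

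Matrix genes differed in both directions. Among 26 hemidesmosome, basement membrane and collagen genes, 6 were called higher and 3 lower, 3 and 4 without WT replicate 3 and 3 and 9 with the length offset, so that no direction of this list is given. Type IV collagen genes fell: Col4a2 was at 4.63, 5.06 and 3.52 CPM in Rescue, 22.8, 21.3 and 23.2 in WT and 0, 0.145 and 0.114 in PKP4-KO (-2.34), and Col4a1 was at -1.76. Col7a1, the anchoring fibril collagen, fell by 1.53 on the log2 scale, and Col16a1 and Col12a1 rose by 2.96 and 1.78. The plasminogen and metalloproteinase list had 6 of 14 members called higher and 3 lower, led by the protease inhibitor genes Serpine2 (18.02, 16.2 and 13.1 CPM in Rescue and 2.48, 1.53 and 2.67 in WT, 2.84) and Timp1 (4.73, 4.01 and 7.85 CPM in Rescue and 17.2, 20.4 and 30.1 in WT, -2.03). Of 16 genes of epithelial-mesenchymal transition, 3 were called higher and 4 lower, and 1 and 4 both without WT replicate 3 and with the length offset. Snai2, which is also expressed in basal keratinocytes, was at 71.6, 81.3 and 86.4 CPM in Rescue, 26.9 to 47.7 in WT and 8.77, 11.6 and 7.84 in PKP4-KO (1.07), and Twist1 was at 4.54, 3.82 and 4.71 CPM in Rescue and 19.96, 22.96 and 17.4 in WT (-2.21).

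Cornified envelope genes had 9 of 55 tested members called higher and 8 lower, shares below those of all genes. Their direction flipped with the processing: the median was -0.14, 0.18 without WT replicate 3, 0.30 without TMM factors and 0.44 with the length offset, where 23 were called higher and 8 lower. Loricrin (Lor), the main envelope protein, was at 94.2, 91.5 and 55.3 CPM in Rescue and 223, 249 and 243 in WT (-1.57; edgeR's quasi-likelihood test, adjusted p = 0.00103). Sprr3 was at 32.02, 28.3 and 37.6 CPM in Rescue and 133, 134 and 269 in WT (-2.45). Both fell without overlap and were called in all 3 fits. The transglutaminase genes, which cross-link the envelope, differed, with Tgm3 at 1.14 (higher), Tgm5 at -1.01 (lower) and Tgm1 at -0.37 (not called). Casp14, the protease of cornification, rose by 0.99 and filaggrin (Flg) by 2.73 on the log2 scale, Flg from low counts. The Sprr2 and Lce genes are near-identical copies whose counts are uncertain; Sprr2f (2.84), Sprr2b (2.02) and Lce1m (2.63) were called higher and Sprr2a1 (-1.82) lower.

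The S100 genes, which encode small calcium-binding proteins, had none of 11 members called higher and 6 lower (median -1.12). S100a10 was at 440.4, 414 and 492 CPM in Rescue and 1204, 1082 and 1785 in WT (-1.60), and S100a16 at 608, 580.4 and 714 CPM in Rescue and 1239, 1221 and 1674 in WT (-1.12). S100a6 was at 389, 351 and 415 CPM in Rescue and 1215, 1048 and 5754 in WT, of which WT replicate 3 was highest. Without that library 3 of the 6 calls were lost: S100a6 (-1.56; edgeR's quasi-likelihood test, adjusted p = 0.274), S100a11 (-1.11; adjusted p = 0.325) and S100a14 (-0.66; adjusted p = 0.387). The calls of these 3 genes were also lost without each Rescue replicate, with edgeR's adjusted p of 0.0746 to 0.0933, 0.0796 to 0.101 and 0.0780 to 0.114. With the length offset 2 members were called higher and 6 lower, DESeq2 called 0 higher, and 0 were higher at an unadjusted p under 0.05. Kallikrein-pathway genes, the proteases of corneocyte shedding, had 5 of 15 members called higher and 3 lower. Klk14 was at 6.86, 7.48 and 6.95 CPM in Rescue and 67.03, 64.01 and 72.8 in WT (-3.26), and Klk6 was at 202, 158 and 207 CPM in Rescue and 31.2, 28.9 and 46.1 in WT (2.42). These 2 proteases moved in opposite directions with no overlap.

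Barrier lipid genes had 13 of 28 members called higher and 3 lower, and 10 and 4 with the length offset. Elovl6, a fatty acid elongase, was at 19.6, 20.9 and 30.8 CPM in Rescue and 3.96, 3.76 and 4.20 in WT (2.58). The lipid transporter gene of lamellar granules, Abca12, was at 91.5, 96.4 and 82.1 CPM in Rescue and 44.1, 48.7 and 32.3 in WT (1.11). Both rose in all 3 Rescue libraries, and the ceramide enzyme gene Degs2 rose by 3.36 from 0.709, 0.352 and 0.820 CPM. Aloxe3, a lipoxygenase of the lipid envelope, was at 42.4, 42.2 and 39.7 CPM in Rescue and 77.8, 74.99 and 131 in WT (-1.19).

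Keratinocyte transcription factors had 14 of 37 members called higher and 3 lower (12 and 9 with the length offset). Tfap2c, an AP-2 factor of the surface ectoderm, was at 7.04, 5.22 and 7.80 CPM in Rescue, 0.236, 1.12 and 0.718 in WT and 34.5, 33.9 and 28.5 in PKP4-KO (3.27). Elf3, an epithelial Ets factor, was at 61.2, 54.95 and 51.9 CPM in Rescue and 17.1, 16.03 and 23.7 in WT (1.57 ± 0.16; edgeR's quasi-likelihood test, adjusted p = 1.14e-08). Gata3 (1.97), Grhl3 (1.08) and Prdm1 (1.23) also rose. Elf3 and Tfap2c were higher in every Rescue than in every WT library. The p63 gene Trp63 (0.64) and Notch1 (-0.08) were not called.

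Positional identity genes gave one of the highest shares of calls. Of 55 Hox and Cdx genes listed, 27 passed the filter on low counts and were tested, and 18 were called higher and 1 lower. A gene near 0 in WT could pass this filter through a line in which it was high. The counts are thus not a share of the whole list. The median of the 27 genes was 2.87 on the log2 scale, and the counts were 18 and 1 without WT replicate 3 and with the length offset. Hoxb7 was at 18.9, 17.8 and 18.1 CPM in Rescue, 0.709, 0.587 and 0.820 in WT and 13.1, 13.2 and 13.4 in PKP4-KO (4.71 ± 0.28; edgeR's quasi-likelihood test, adjusted p = 8.72e-13). Hoxb9 was at 43.05, 47.8 and 33.6 CPM in Rescue and 12.6, 15.9 and 19.5 in WT (1.38). All Rescue libraries exceeded all WT libraries for both genes, and the members called higher lay in the A, B and C clusters. Hoxd8 was the member that fell (-3.33). Most members were low, with 6 reaching a mean of 5 CPM in either line, and Hoxc13, which is expressed in hair and nail, rose by 0.91.

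Glycolysis and hypoxia response genes moved together. Of 30 tested, 25 were called higher and none lower, against 19.5% higher among all genes, and the median log2 fold change was 1.15. The counts were 27 and 0 without WT replicate 3 (median 1.21) and 23 and 0 with the length offset (median 1.03), DESeq2 called 0 lower, and 0 were lower at an unadjusted p under 0.05. Bnip3, a mitophagy receptor induced by HIF-1, was at 192, 257 and 189.8 CPM in Rescue, 24.4, 24.1 and 17.02 in WT and 182, 210.5 and 169 in PKP4-KO (3.28 ± 0.25; edgeR's quasi-likelihood test, adjusted p = 1.12e-10). Egln3, a prolyl hydroxylase that marks HIF for decay, was at 153, 178 and 166 CPM in Rescue, 26.8, 25.1 and 26.2 in WT and 298, 257 and 229.6 in PKP4-KO (2.67). Ndrg1 was at 474, 516 and 371 CPM in Rescue, 88.2, 105 and 104 in WT and 1610, 1343 and 1215 in PKP4-KO (2.19). The lowest Rescue library exceeded the highest WT library several-fold for each of these. Vegfa, the endothelial growth factor gene, rose by 2.25, the oxidoreductase gene Ero1a by 2.52, and the peptide hormone gene Adm by 5.26 from at most 7 reads per WT library. Glycolytic enzymes rose by smaller amounts than these: hexokinase 2 (Hk2) by 1.92, Pfkp by 1.94, Ldha by 1.21, Eno1 by 1.21 and Pgk1 by 0.81. Gapdh (-1.20), Gpi1 (0.28) and Hif1a (0.67) were not called.

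Promoters of the called hypoxia genes were searched for TACGTG, the core of hypoxia response elements, on both strands and in the 300 bases from 250 before to 50 after the RefSeq start (build GRCm38.p6). Of 25 genes 24 had a sequence, and 7 of these (29.2%) held the letters, against 3.67% of all 27025 promoters. The promoter of P4ha1, a collagen prolyl hydroxylase (1.59 on the log2 scale), is shown as an example chosen after the values were seen. It lies at chr10:59323046-59323345 on the forward strand, and the match, on the reverse strand, is in capitals.
P4ha1 promoter: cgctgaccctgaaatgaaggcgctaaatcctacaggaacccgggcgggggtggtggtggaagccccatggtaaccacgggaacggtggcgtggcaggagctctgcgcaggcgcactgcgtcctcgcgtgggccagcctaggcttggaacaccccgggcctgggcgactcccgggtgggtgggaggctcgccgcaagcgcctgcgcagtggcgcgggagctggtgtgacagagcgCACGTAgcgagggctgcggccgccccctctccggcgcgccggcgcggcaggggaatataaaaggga
A match is a description of the sequence and not evidence of binding. The genes came from a list of hypoxia response genes, and members not called were not searched. The excess over all promoters may thus come from the list and says nothing about the calls.

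The integrated and endoplasmic reticulum (ER) stress list had 18 of 24 members called higher and none lower, with a median of 0.84, and 17 and 16 higher without WT replicate 3 and with the length offset. DESeq2 called 0 lower and 0 were lower at an unadjusted p under 0.05. Chac1, a glutathione-degrading enzyme and target of ATF4, was at 150.4, 135 and 90 CPM in Rescue, 23.9, 20.7 and 33.9 in WT and 91.5, 69.2 and 65.5 in PKP4-KO (2.26 ± 0.19; edgeR's quasi-likelihood test, adjusted p = 6.74e-10). Trib3, a pseudokinase that restrains this response, was at 117, 113 and 99.6 CPM in Rescue, 21.6, 22.7 and 25.5 in WT and 399.9, 364 and 306 in PKP4-KO (2.24). Mthfd2, of mitochondrial one-carbon metabolism, was at 176, 173 and 172 CPM in Rescue and 65.02, 75.7 and 74.9 in WT (1.27). None of the 3 genes overlapped between the groups. Atf4 itself rose by 0.61, Ddit3 (CHOP) by 1.09 and Ppp1r15a, which returns translation to normal, by 1.18. Of the ER branch, Dnajb9 (1.64) and Herpud1 (1.39) rose, and the chaperone genes Hspa5 (0.49), Hsp90b1 (0.15) and Calr (0.30) were not called. The amino acid transporter gene Slc7a11, which imports cystine, was at 32.99, 38.1 and 40.1 CPM in Rescue and 10.9, 11.9 and 5.23 in WT (1.97).

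The composite C/EBP-ATF element TGATGNAA was found in the promoters of 5 of the 17 called stress genes with a sequence (29.4%), against 4.51% of all promoters. These genes too came from a pathway list whose uncalled members were not searched, so the share says nothing about the calls. The promoters of Chac1 (chr2:119350992-119351291, forward strand) and Trib3 (chr2:152344011-152344310, reverse strand, printed 5′ to 3′ on the gene's strand), both of GRCm38.p6 from RefSeq, are shown because these genes lead the list; the matches are in capitals and lie on the strand opposite to the gene.
Chac1 promoter: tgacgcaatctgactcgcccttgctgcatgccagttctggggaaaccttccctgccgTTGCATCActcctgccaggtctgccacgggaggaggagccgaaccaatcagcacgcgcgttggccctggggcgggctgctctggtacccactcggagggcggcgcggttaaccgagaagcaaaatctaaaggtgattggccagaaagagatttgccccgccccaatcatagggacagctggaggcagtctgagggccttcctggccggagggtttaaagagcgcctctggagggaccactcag
Trib3 promoter: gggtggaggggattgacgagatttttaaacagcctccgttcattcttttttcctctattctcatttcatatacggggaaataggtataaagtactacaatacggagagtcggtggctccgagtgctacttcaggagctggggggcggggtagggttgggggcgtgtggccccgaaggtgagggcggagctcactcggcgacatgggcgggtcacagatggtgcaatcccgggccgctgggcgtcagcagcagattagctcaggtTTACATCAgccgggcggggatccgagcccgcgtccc
The sterol element TCACNCCAC was found in 1 of 13 promoters of the called cholesterol and fatty acid genes (7.69%; all promoters 1.44%). The same limit holds for this list. In the 22 available promoters of the 15 highest and 15 lowest genes, the AP-1 site TGANTCA was found in 5 (22.7%; all promoters 8.97%) and the GRHL site AACCGGTT in 1 (4.55%; all promoters 0.174%).

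Cholesterol and fatty acid synthesis genes had 23 of 34 members called higher and 2 lower (median 0.76). The counts were 19 and 1 without WT replicate 3 and 18 and 2 with the length offset. Fatty acid synthase (Fasn) was at 407, 435 and 338 CPM in Rescue, 145, 167 and 130.3 in WT and 117, 71.4 and 104 in PKP4-KO (1.41 ± 0.21; edgeR's quasi-likelihood test, adjusted p = 6.14e-06). The desaturase gene Scd1 was at 16.9, 13.2 and 12.6 CPM in Rescue and 0.650, 0.705 and 0.513 in WT (4.47). For both genes the lowest Rescue library lay above the highest WT library. Squalene epoxidase (Sqle, 1.16) and Acly (1.07), which supplies acetyl-CoA, rose too. The regulator gene Srebf2 rose by 0.52 (no call under the length offset), whereas Srebf1 (0.13) was not called. Mvk (-0.65) and Nsdhl (-0.51) were the members that fell, Nsdhl with no call without WT replicate 3.

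**Figure D4:**
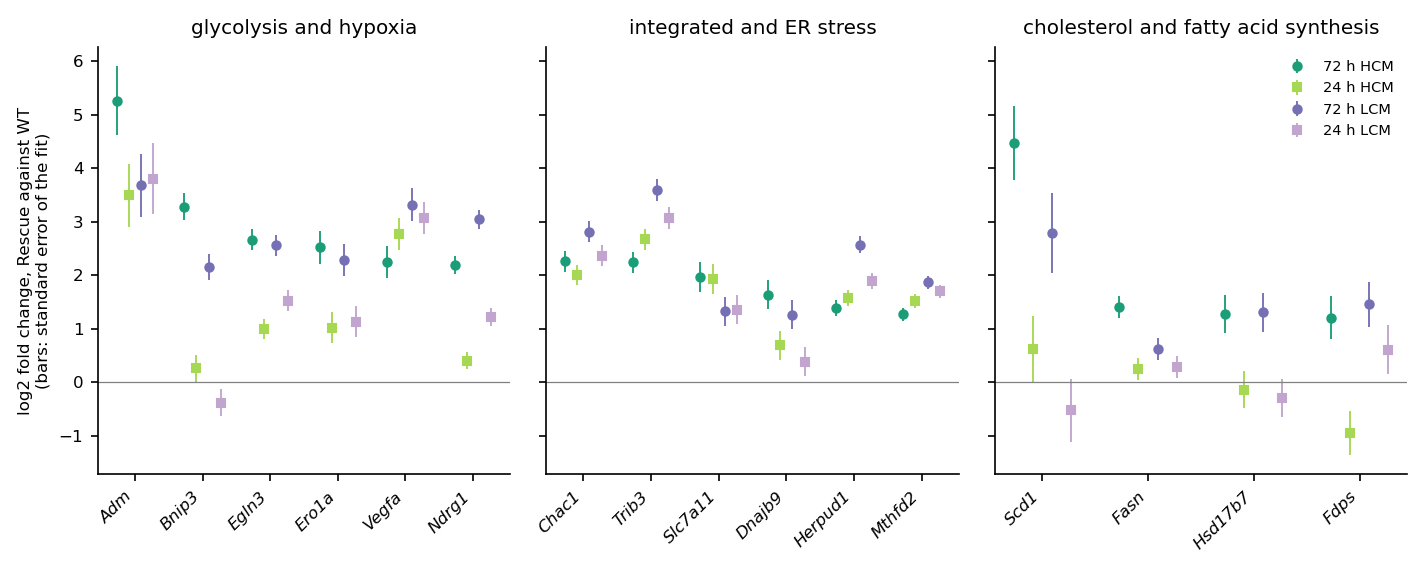
Log2 fold change of Rescue against WT (points; bars are the standard error of the fit) in 4 culture conditions for up to 6 genes each of the hypoxia, stress and cholesterol and fatty acid lists. At 72 h the values of Bnip3 (3.28 in HCM, 2.16 in LCM) and Fasn (1.41 and 0.62) lie above those at 24 h, and Chac1 lies between 2.00 and 2.81 in every condition.

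Signalling and immune lists held members that rose and members that fell. AP-1 and immediate-early genes had 9 of 22 members called higher and 2 lower, led by the MAP kinase phosphatase gene Dusp4, at 37.1, 38.7 and 26.3 CPM in Rescue, 3.01, 4.05 and 2.05 in WT and 0.635, 0.582 and 0.227 in PKP4-KO (3.46). Egr1 (-1.81) and Fos (-1.38) fell and Dusp1 (1.76) and Atf3 (2.44) rose. EGF receptor genes and ligands had 2 of 14 members called higher, Errfi1 (1.02), a feedback inhibitor of the receptor, and Erbb3 (0.50). The groups overlapped for Erbb3, whose call was lost without Rescue replicate 2, WT replicate 1 or WT replicate 3 (0.38, 0.43 and 0.45; edgeR's adjusted p = 0.112, 0.074 and 0.0711) and with the length offset (0.19; edgeR's adjusted p = 0.374). The list had 1 member called higher without WT replicate 3 and 1 higher and 2 lower with the length offset. Cytokine and chemokine genes had 6 of 33 members called higher and 8 lower. The interleukin-36 antagonist gene Il36rn was at 31, 28.9 and 31.2 CPM in Rescue and 119, 111 and 138 in WT (-2.02), and Il18 was at 30.8, 31.1 and 46 CPM in Rescue and 95.8, 85.8 and 167 in WT (-1.69). Tslp, an alarmin of the epidermis, was at 10.1, 11.2 and 18.4 CPM in Rescue, 3.13, 1.82 and 3.38 in WT and 173, 177 and 108 in PKP4-KO (2.27). Il36rn and Il18 were lower, and Tslp higher, in all Rescue libraries, while the call of Defb14 (-3.08, at 244, 174 and 1465 CPM in WT) was lost without WT replicate 3 (-1.49) and without each Rescue replicate (-3.27 to -2.92). Of 22 interferon-stimulated genes 5 were called higher and 2 lower (6 and 4 with the length offset), beside 19.5% and 16.7% of all tested genes. The class I genes H2-K1 (2.83) and H2-D1 (1.997), which share sequence, rose and Ddx58 (-1.68), an RNA sensor, fell.

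Cell cycle genes were called in both directions, 11 of 50 each, and 3 higher and 15 lower with the length offset. Among all tested genes 19.5% were called higher and 16.7% lower, and the list counts of this paragraph stand beside these shares. Thymidylate synthase (Tyms) was at 33.4, 30.5 and 42.1 CPM in Rescue and 79.02, 72.2 and 87.98 in WT (-1.17), and the centromere histone gene Cenpa at 52.1, 45.6 and 62.1 CPM in Rescue and 109.9, 97.7 and 119 in WT (-1.03). Both fell without overlap. Of 25 p53 targets and cell cycle inhibitors 6 were called in each direction, and 3 higher and 5 lower without WT replicate 3. The CDK inhibitor genes Cdkn1c (16.8, 12.8 and 13.9 CPM in Rescue and 1.18, 1.29 and 0.410 in WT, 3.84) and Cdkn1b (47.1, 49.3 and 42.1 CPM in Rescue and 16.1, 20.02 and 18.5 in WT, 1.34) rose, and the death receptor gene Fas (-1.65) fell. NRF2 targets, antioxidant genes, had 6 of 24 members called higher and 7 lower: thioredoxin reductase (Txnrd1) was at 112, 126 and 97.8 CPM in Rescue and 25.5, 29.01 and 16.2 in WT (2.24), and the glutathione transferase gene Gsta4 at 790.1, 754 and 956 CPM in Rescue and 1993, 1987 and 2772 in WT (-1.43). Calcium handling genes had 4 of 21 members called higher and 5 lower (3 and 8 with the length offset), beside 19.5% and 16.7% of all tested genes. Among those called were the store-operated channel gene Orai1 (-1.04, lower) and the receptor gene Itpr3 (0.78, higher). Of 17 ephrin and Eph genes 5 were called in each direction, with Epha2 (1.14) higher and Efna3 (-1.78) and Efnb1 (-0.98) lower.

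**Figure D5:**
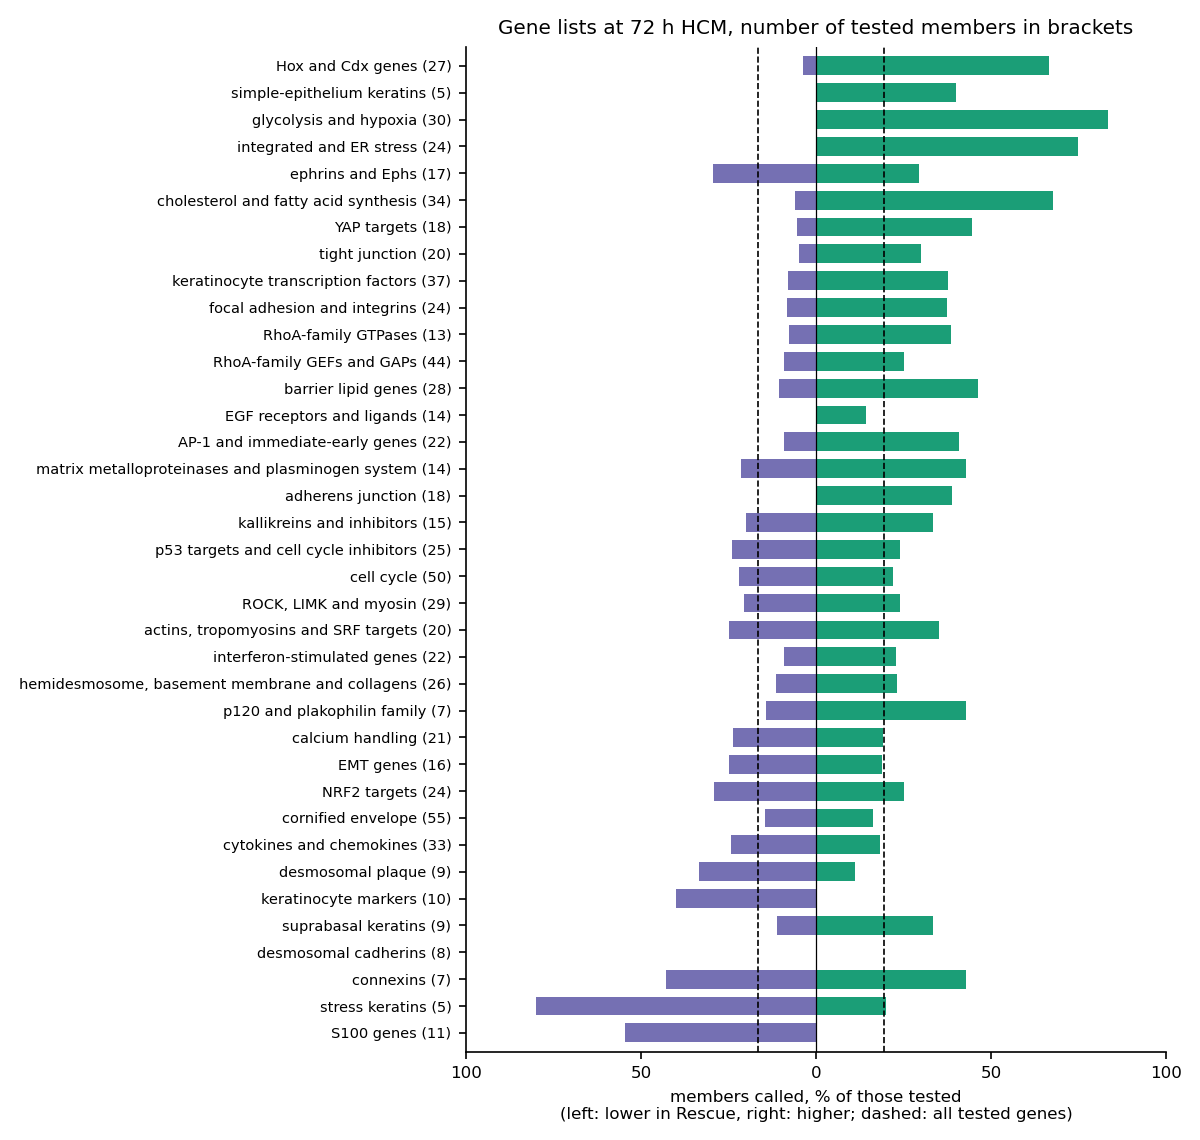
Share of tested members (horizontal axis, percent) of each gene list with at least 5 tested members called lower (left) or higher (right) in Rescue against WT at 72 h HCM, ordered by median log2 fold change, with the number of tested members in brackets and the shares over all tested genes (16.7% and 19.5%) dashed. Hypoxia (25 of 30), stress (18 of 24), cholesterol and fatty acid (23 of 34) and Hox and Cdx genes (18 of 27) reach the highest shares to the right among the lists drawn, and stress keratins (4 of 5) and S100 genes (6 of 11) to the left. Only 27 of the 55 Hox and Cdx genes listed passed the filter, which genes low in WT could pass through another line.

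The difference between Rescue and WT was then compared between 72 h and 24 h HCM, which shows how it changed with time in high calcium. For 862 genes (5.70% of those tested) the log2 fold change was higher at 72 h than at 24 h, and for 721 (4.77%) it was lower, by edgeR's quasi-likelihood test of the difference; the length offset gave 629 and 893, and library sizes without TMM factors 936 and 374. Cholesterol and fatty acid genes had 16 of 34 members with a higher and none with a lower value at 72 h, and at 24 h HCM 1 was called higher and 5 lower. Glycolysis and hypoxia genes had 14 higher and 1 lower of 30, with 11 higher and 1 lower at 24 h. For Bnip3 the difference of the log2 fold changes was 3.02 ± 0.35 (edgeR's quasi-likelihood test, adjusted p = 3.57e-06), with 4.23 to 6.99 CPM in Rescue and 3.45 to 5.67 CPM in WT at 24 h, where the groups overlapped. For Fasn it was 1.16 ± 0.29 (edgeR's adjusted p = 0.00987), with 129 to 172 CPM in Rescue and 98.7 to 144 CPM in WT at 24 h. The integrated and ER stress genes differed in 1 member each way, and 15 of 24 were already higher at 24 h. Cell cycle genes had 12 of 50 members with a higher value at 72 h and 1 with a lower one, and 20 of them were called lower at 24 h. Adherens junction genes had 5 of 18 and YAP targets 7 of 18 members with a higher value at 72 h and none with a lower one. Cornified envelope genes had 2 of 55 with a higher and 14 with a lower value, and 21 were higher in Rescue at 24 h. The median gene length of this list was 752 bases, and its direction at 72 h HCM changed with the processing. Its counts for the difference were not made without WT replicate 3 or with the length offset, so no change with time is read from them. Loricrin was at 34.5 to 55.3 CPM in Rescue and 10.6 to 17.6 CPM in WT at 24 h, so that its direction at 24 h (1.63) was opposite to that at 72 h.

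The calcium dependence was read from the same time in LCM. For 1029 genes (6.81%) the log2 fold change was higher in HCM than in LCM at 72 h, and for 1174 (7.77%) lower; library sizes without TMM factors gave 1715 and 579. Cytokine and chemokine genes had 23 of 33 members with a lower value in HCM and none with a higher one. In LCM 22 of these were called higher in Rescue and 2 lower. Csf3, the granulocyte growth factor gene, was at 34.04 to 47.4 CPM in Rescue and 0.455 to 0.702 CPM in WT in LCM, and at 2.46, 2.65 and 4.47 CPM in Rescue and 4.08, 3.35 and 3.08 in WT in HCM. The groups were far apart in LCM and overlapped in HCM, and the difference of the fold changes was -6.28 ± 0.41 (edgeR's quasi-likelihood test, adjusted p = 7.2e-11). The EGF receptor ligand gene Areg was at 47.6 to 78.1 CPM in Rescue and 1.14 to 1.47 CPM in WT in LCM, against 4.77, 3.82 and 6.18 CPM in Rescue and 7.09, 5.29 and 4.51 in WT in HCM. Barrier lipid genes had 20 of 28 members with a lower value in HCM and none with a higher one, and cornified envelope genes 27 and 2 of 55. The cornified envelope genes are short, and these counts too were not made without WT replicate 3 or with the length offset. In LCM 24 barrier lipid and 32 cornified envelope genes were called higher in Rescue. Rescue replicate 2 of 72 h LCM also stood apart, with 13.3% of its reads on genes under 1000 bases against 5.24% and 6.57% in the other Rescue libraries of that group, and without it 611 genes had a higher value in HCM.

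Other lists and genes also differed by calcium. The stress keratin genes had 4 of 5 members with a lower value in HCM, where 4 were called lower, than in LCM, where 2 were called higher and none lower. Kallikrein-pathway genes had 10 of 15 members with a lower value in HCM. Glul, glutamine synthetase, was at 4.88 to 7.11 CPM in Rescue and 82.3 to 82.6 CPM in WT in LCM and at 86.5, 79.1 and 53.5 CPM in Rescue and 32.2, 32.7 and 50.1 in WT in HCM, so that Rescue was below WT in LCM and above it in HCM. Its difference was 4.67 ± 0.52 (edgeR's quasi-likelihood test, adjusted p = 2.77e-07). Its call in HCM (0.93, edgeR's adjusted p = 0.0377) was lost without Rescue replicate 1 or 2 and without WT replicate 1 or 2 (log2 fold changes of 0.79, 0.87, 0.82 and 0.83, edgeR's adjusted p of 0.101 to 0.127), and with the length offset (0.74, edgeR's adjusted p = 0.0725). The adherens junction list had 7 of 18 members with a higher value in HCM and 1 with a lower one, and RhoA-family GEF and GAP genes 9 and 3 of 44. Pkp2 was at 1.55 to 3.04 CPM in Rescue and 1.15 to 1.55 CPM in WT in LCM, and its fold change was higher in HCM by 2.29 ± 0.56 on the log2 scale (edgeR's adjusted p = 0.00545).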

How the data were processed

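Poly(A) RNA of 36 libraries of mouse keratinocytes was sequenced, and the authors deposited raw counts of reads per gene. The submitters' processing notes name HISAT2 2.1.0, SAMtools 1.10 and featureCounts 2.0.0 and the mm39 build; the human GFP-PKP4 sequence had been added to the genome. The strand setting of counting is not given in the sources used here, so antisense and overlapping genes are uncertain, as are near-identical copies (Sprr2, Lce, Krt6, Serpinb3, Gsta, histone and class I genes).

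Groups were taken from the labels. Genes were kept by edgeR's filter on low counts (15114 of 55358; 28780 had a read), scaled with TMM factors and fitted over all 12 groups of 3 libraries with edgeR's quasi-likelihood test (R 4.3.3, edgeR 4.0.16, limma 3.58.1; 24 residual degrees of freedom), with Benjamini-Hochberg adjustment over all genes tested. The contrasts were Rescue minus WT in each condition and the differences of that contrast between times and between calcium conditions. Standard errors are those of the fit. The labels do not say that replicates came from separate cultures, so p-values measure the spread between these libraries, which may be technical. Gene totals (13602728 to 22467187 counts) limit precision for low genes; a floor of 3 counts covers counting error only.

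Named genes were Pkp4 and GFP-PKP4; of each gene list, up to 6 called members with the largest absolute log2 fold change and a mean of at least 5 CPM in Rescue or WT; the 15 highest and 15 lowest called protein-coding genes with at least 10 CPM and no overlap; and the 8 highest and 8 lowest for each difference. Other list members are named where a sentence gives the values of their list, and P4ha1 was chosen after its values were seen. Some genes that these rules name are not reported here. The members, lists and tests were chosen with earlier results of these data known.

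Alternatives were DESeq2 1.42.0, library sizes without TMM factors, no filter, a minimum of 10 counts in each library, a fit of the compared groups alone, the replicate number as a block and each library left out. A smooth offset for gene length (natural spline with 4 degrees of freedom per library) and the hypoxia, stress and sterol motifs were added after seeing the data. Same-numbered Rescue and WT libraries deviated from their group means with correlations of -0.16, 0.14 and -0.07. With 3 libraries per group these values cannot decide whether the numbers pair the libraries. Scripts were tested on simulated data. Promoters came from RefSeq (GRCm38.p6), and gene positions from the GRCm39 annotation.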

Additional observations from a re-analysis of the deposited data

Results flagged for a closer look

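The genes below had a Rescue against WT difference that itself differed between 2 conditions by edgeR's quasi-likelihood test of the difference; they are the 8 highest and 8 lowest by that difference, and their order was thus set by the same test. Values are the difference between 2 log2 fold changes.

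Between 72 h and 24 h HCM, the value was higher at 72 h for Gpnmb (4.13), Scd1 (3.85), Akap12 (3.31), a scaffold of kinase A, Papss2 (3.27), a sulfate donor enzyme, Bnip3 (3.02), Gpr50 (2.95), Atp1b1 (2.87), a sodium pump subunit, and the kinase gene Sgk1 (2.75). It was lower at 72 h for Mt4 (-4.39), Il36a (-3.94), Kcnip3 (-3.81), Ms4a10 (-3.43), Lor (-3.203), Csf3 (-3.19), Slurp1 (-3.04) and Aldh3a1 (-3.01). WT replicate 2 of 24 h HCM had 11.1% of its reads on genes under 1000 bases, against 4.92% and 6.01% in the other WT libraries of that group, and the part of this in the values was not tested.

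Between HCM and LCM at 72 h, the value was higher in HCM for Glul (4.67), Cables1 (4.31), the heat shock gene Hspa1a (3.197), Sesn1 (3.13), Tlcd2 (3.06), Klhl24 (3.02), which controls keratin turnover, Serpinb9 (2.94) and Atp1b1 (2.87). It was lower in HCM for Defb14 (-7.06), Kcnip3 (-6.79), Mt4 (-6.61), the natriuretic peptide gene Nppb (-6.35), Csf3 (-6.28), Mt2 (-6.12), Clec2d (-5.85) and Areg (-5.71). Defb14, Mt2 and Mt4 were also highest in WT replicate 3 at 72 h HCM.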

How the results depend on the processing

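DESeq2 left all 228 named genes called in the same direction. Of these genes, 17 lost their call with library sizes without TMM factors, 9 without the filter, 8 with only the groups compared and 22 with the length offset, under which Patj, a further gene, turned to -0.040; the causes were not tested. Without Rescue replicates 1, 2 and 3, 16, 22 and 14 lost their call, without WT replicates 1 and 2, 4 each, and without WT replicate 3, 29. At least 10 counts in every library kept 162 named genes, all called alike.

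Library sizes without TMM factors gave 4856 higher and 1209 lower genes at 72 h HCM, 374 with a lower value at 72 h than at 24 h, and 1715 higher and 579 lower for HCM against LCM. Without the filter, which tests more genes, 385 genes had a higher value at 72 h than at 24 h and 656 in HCM than in LCM.

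Leaving out 1 library at a time gave 2237 to 2796 higher and 1668 to 2605 lower genes at 72 h HCM, with the lowest counts without WT replicate 3. The time difference ranged from 497 to 1029 higher and from 407 to 898 lower. Its higher count was 541 and 497 without Rescue replicates 1 and 2 of 72 h HCM and 500 without WT replicate 1 of 24 h HCM. Its lower count was 429 without Rescue replicate 2 and 422 without WT replicate 3 of 72 h HCM, and 472 and 407 without Rescue and WT replicate 1 of 24 h HCM. The calcium difference ranged from 611 to 1414 higher and from 786 to 1782 lower, with 611 without Rescue replicate 2 and 1782 without Rescue replicate 1 of 72 h LCM. Pkp4 ranged from -2.22 to -1.88 and GFP-PKP4 from 7.58 to 8.23 (log2).

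With the replicate number as a block, although it is not known whether the numbers pair the libraries, 2946 genes were higher and 2418 lower. The counts were 799 and 694 for the time and 990 and 1111 for the calcium difference, and 3 named genes lost their call. Depth limits calls for genes of a few reads per library.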

Other observations

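Genes called higher or lower were not spread evenly over the chromosomes. On chromosome 5, 112 of 976 tested genes were called higher and 273 lower (median log2 fold change -0.23), and on chromosome 2, 142 and 263 of 1183 (-0.09). On chromosome 14, 160 of 526 were called higher and 55 lower (0.37), on chromosome 6, 210 and 66 of 727 (0.23), and on chromosome 1, 235 and 95 of 870 (0.27). On the X chromosome, for which the sex-linked RNA of the lines also differed, 58 of 482 genes were called higher and 119 lower (-0.16). In the libraries of 72 h LCM the medians were -0.26 on chromosome 5, 0.25 on chromosome 14, 0.17 on chromosome 6 and -0.28 on the X chromosome. With the length offset the medians at 72 h HCM were -0.44, 0.19, 0.07 and -0.25 in that order. These values describe the lines and were not tested.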
